A study of Homo sapiens with 12 samples.

Results

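The genes described here, nearly all encoding proteins of the human mitochondrial ribosome, were chosen by symbol: every gene named MRPL or MRPS followed by a number. The count table holds 77 such genes among its 35741, each listed once. By name 51 belong to the large subunit and 26 to the small, with MRPS30 and MRPS18A counted in the large subunit, where their proteins sit. Another split by name puts 47 in families shared with bacterial ribosomes and 30 in the group found only in mitochondria. MRPS36 is kept by name among the 26 and the 30, although its product is now known as a subunit of another complex.

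Mitochondria carry their own ribosome, which reads the few messenger RNAs made from mitochondrial DNA and inserts their products, core subunits of the respiratory chain, into the inner membrane. The protein parts of this ribosome are all encoded in the nucleus, made in the cytosol and imported, so their supply has to be matched to ribosomal RNA made inside the organelle. Many of these genes have promoters without a TATA box that carry sites for NRF1, for GABP (an ETS-family factor) or for YY1.

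Messenger RNA was sequenced from U87 cells, an established human glioblastoma line, in 4 groups of 3 libraries. Control cells were untreated. In the other groups, nanoparticles (BNP) delivered sgPNA-10b (PNA-10b), sgPNA-21 (PNA-21) or both (PNA-10b+21), and cells were collected after 72 h. A collection time for the control cells is not given. Each sgPNA was dosed at 150 nM, so the combined arm carries the summed dose. Peptide nucleic acids bind complementary RNA through a backbone that nucleases do not cut, and these are directed at the microRNAs miR-10b and miR-21. No group of cells with nanoparticles alone or with a non-targeting sgPNA is described, so effects of delivery and of sequence cannot be told apart. They do not say whether the 3 libraries of a group came from separate cultures, so p-values measure only the spread between these libraries.

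Library totals ran from 12846676 to 18305820 counts, and no 2 libraries of a group agreed within counting noise (chi-square per degree of freedom 2.66 to 5.3). Of the glioma and glial markers, VIM (1540 to 1970 CPM, the TMM-scaled share of a library's counts) and CD44 (1280 to 1460 CPM) were abundant, NES, OLIG2 and GFAP stood between 1.29 and 16.5 CPM, and SOX2 and S100B were at or near 0. Of the markers of other cells, CD3E and CDH1 were at 0 in 11 and 10 of the 12 libraries, and PTPRC reached 1.98 CPM. PECAM1, VWF, EPCAM, RBFOX3 and SYP stayed at or under 5.08 CPM, ACTA2 at 17.3 to 20.2, and PDGFRB averaged 157 CPM in control, 112 in PNA-10b and 93.8 in both groups given sgPNA-21. The part of the PDGFRB difference in the results below was not tested. In bulk RNA, fewer cells of a type and less RNA per cell cannot be told apart.

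Promoter sequence from RefSeq (GRCh38.p14, 250 bases before to 50 bases after the first listed start site) was found for 68 of the 77 genes. Each was searched on both strands for GCGCANGC, the core of the NRF1 site, CCGGAAGT, an ETS site, and AAGATGGC, a YY1 site. The YY1 letters were in 19 of the 68 promoters (27.9%), against 3.03% of all 27305 promoters in the table. NRF1 letters were in 22 (32.4%, against 12.5%) and ETS letters in 11 (16.2%, against 4.44%). The set of all promoters was not limited to protein-coding genes or to genes with RNA counted here. Its shares, here and below, therefore do not come from a set like the members. At least 1 of the 3 was in 41 promoters, and 27 had none of these letters in the window. The YY1 letters clustered in 1 place: in 14 promoters (20.6%, against 1.39% of all) they read in the direction of the transcript within 50 bases after its start, beginning at positions 7 to 36. In 11 of these 14 the ATG inside the letters is an annotated start codon, the exceptions being MRPL20, MRPL42 and MRPL51. A match is a description of letters, not evidence that a factor binds there.

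The following stretches are shown because they hold these matches in genes whose RNA levels are described below. They read 5′ to 3′ along the transcript, with the matched letters in capitals. The first 4 hold YY1 letters just inside the transcript, the next 2 ETS letters and the last 2 NRF1 letters. The genes of the first 4 were called higher below, and several others with YY1 letters there were not.
MRPL42 (chr12:93467511-93467540, + strand, capitals at positions 9 to 16): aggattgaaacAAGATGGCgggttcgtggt
MRPS30 (chr5:44808949-44808978, + strand, capitals at positions 14 to 21): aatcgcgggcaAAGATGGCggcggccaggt
MRPS10 (chr6:42217834-42217863, - strand, capitals at positions 10 to 17): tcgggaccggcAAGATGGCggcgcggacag
MRPS27 (chr5:72320206-72320235, - strand, capitals at positions 17 to 24): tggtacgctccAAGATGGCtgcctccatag
MRPL3 (chr3:131502985-131503014, - strand, capitals at positions -32 to -25): tgtaaaacgcaCCGGAAGTgggtccggcgg
MRPL47 (chr3:179604659-179604688, - strand, capitals at positions -39 to -32): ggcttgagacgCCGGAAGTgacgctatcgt
MRPL17 (chr11:6683365-6683394, - strand, capitals at positions -43 to -36): tccgagctaagGCGCATGCgttccctgaaa
MRPL22 (chr5:154941038-154941067, + strand, capitals at positions -24 to -17): tccagagtattGCGCATGCgtgctgtccag

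**Figure D1:**
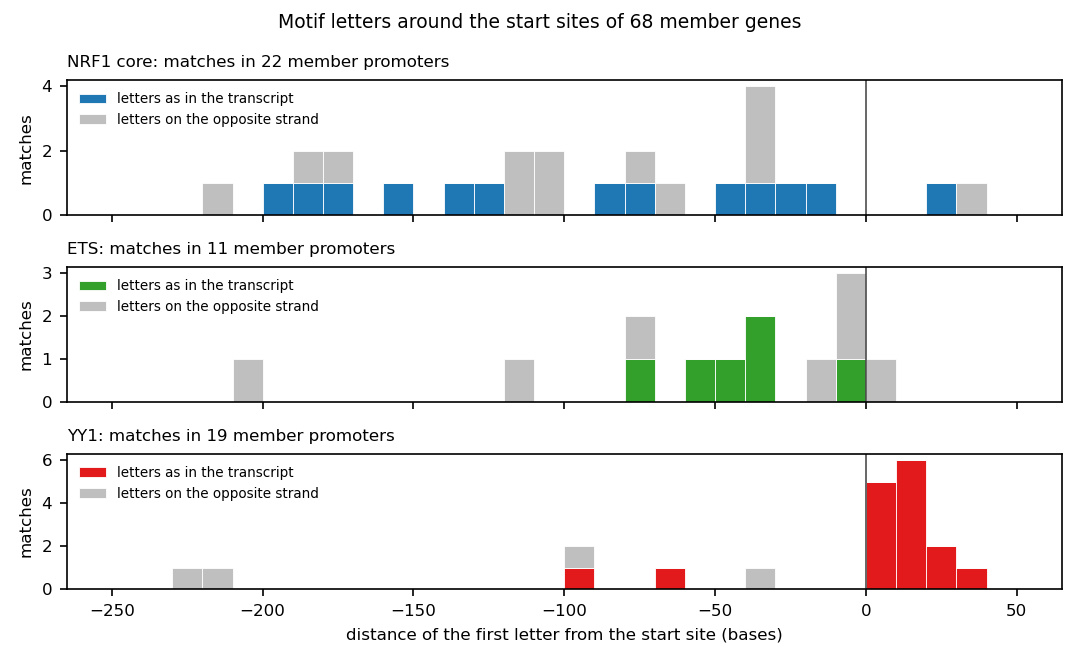
Distance of each motif match from the start site (x axis, bases) in the 68 promoters, with the number of matches in 10-base bins (y axis); colour marks letters that read as in the transcript and grey the opposite strand. The YY1 letters gather just after the start site, where 14 promoters have them.

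The sgPNAs were directed at microRNA seeds, so 3′ UTRs of the members (longest annotated per gene, GENCODE release 29, hg38) were searched for the letters that pair with bases 2 to 8 of the microRNA. The mature hsa-miR-21-5p of RefSeq (chr17:59841273-59841294, + strand), with its seed in capitals, is
hsa-miR-21-5p: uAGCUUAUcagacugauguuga
Its match, ATAAGCT, was in 7 of the 77 members (9.09%), against 10.4% of the 12237 tested genes with an annotated 3′ UTR. The match of miR-10b-5p, ACAGGGT, was in 5 (6.49%, against 15%): MRPL30, MRPL42, MRPS12, MRPS17 and MRPS28. The miR-21-5p matches are printed because sgPNA-21 is directed at this seed, with the paired letters in capitals.
MRPL9 (chr1:151759806-151759832, - strand): tgtagatttgATAAGCTagatgcagta
MRPS33 (chr7:141003425-141003451, - strand): acatttgtacATAAGCTataccttcaa
MRPS10 (chr6:42207596-42207622, - strand): cattcattcaATAAGCTtttactgcat
MRPL30 (chr2:99197410-99197436, + strand): ccattaataaATAAGCTtaaaggcaac
MRPL42 (chr12:93504846-93504872, + strand): ctactagcctATAAGCTccatgacttc
MRPL42 (chr12:93508796-93508822, + strand): gcaatcatggATAAGCTcaataactga
MRPL17 (chr11:6681407-6681433, - strand): gggctccaggATAAGCTccttcctctt
MRPS25 (chr3:15049609-15049635, - strand): tccttagagaATAAGCTtgccaattta
In MRPL9 and MRPS33 the match is followed by an A, which makes it an 8mer site. Both MRPL42 sites lie in its longest annotated 3′ UTR, of 14992 bases, and whether U87 cells make a transcript with it was not tested.

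In control cells the members ranged widely in level. Levels of different genes are compared as CPM per kilobase of annotated exon, which understates genes with long rarely used exons, such as MRPL42 with 16393 exon bases. The median over the 75 members with enough counts to test was 13.5 CPM per kilobase, 14.4 in the large and 11.6 in the small subunit. MRPL51 was highest at 78.4 (76.2 to 80.9 over the 3 control libraries), followed by MRPL37 at 58.3 (55.2 to 61.2) and MRPL17 at 57.3 (55.6 to 59.0). The ranges of MRPL37 and MRPL17 overlapped. In the whole order only 9 of the 74 pairs of neighbours did not overlap between control libraries, so most neighbours in the order are not separated. All 3 of these abundant members encode large subunit proteins. Levels above 10 CPM per kilobase were found for 52 members and levels below 2 for 7.

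MRPL45 and MRPL53 were removed by the filter on low counts: MRPL45 had 6 counts in all 12 libraries together and MRPL53 had 1. MRPL45 helps to hold the ribosome at the inner membrane, and MRPL53 is another mitochondria-specific large subunit protein. The lowest member tested was MRPL38, at 0.571 CPM per kilobase in control. The deposited counts of several low members come from loci where annotated genes share exon bases, and reads in shared bases may not have been given to the member. The share of exon bases that another gene on the same strand also covers was 45.2% for MRPL53, 37.5% for MRPL38, 27% for MRPS17, 35.8% for MRPS28 and 68.2% for MRPL12, and 0.0% for MRPL45. In all, 14 members share more than 20% of their exon bases with another gene on either strand. The part of this in the low counts was not tested.

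The paralogs of bacterial protein S18 differ by compartment in the ribosome: the product of MRPS18C sits in the small subunit and that of MRPS18A in the large. MRPS18A stood at 14.1 CPM per kilobase in control and MRPS18C at 1.61, and MRPS18B was not analysed here. Neither passed the test in any comparison. Against control, MRPS18A was at a log2 fold change of 0.14 ± 0.08 (SE) in PNA-21 and 0.17 ± 0.08 in PNA-10b+21, and MRPS18C at 0.05 ± 0.13 and 0.09 ± 0.13. On the opposite strand other genes cover 47.0% of the exon bases of MRPS18A and 40.2% of those of MRPS18C.

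As a whole the mitochondrial ribosomal protein genes were slightly higher in both groups that received sgPNA-21, and by a margin seen across libraries. Their summed level was 3335, 3247 and 3193 CPM in control, 3376, 3378 and 3260 in PNA-10b, 3621, 3457 and 3538 in PNA-21, and 3541, 3697 and 3428 in PNA-10b+21. Every library with sgPNA-21 lay above every control and PNA-10b library, while control and PNA-10b overlapped. The median member stood 0.095 to 0.162 log2 units above the control mean in the PNA-21 libraries and 0.086 to 0.206 in PNA-10b+21, against 0.01 to 0.067 in PNA-10b and -0.031 to 0.043 in control. Over all 15715 genes tested this median stayed between -0.006 and 0.004 in every library.

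**Figure D2:**
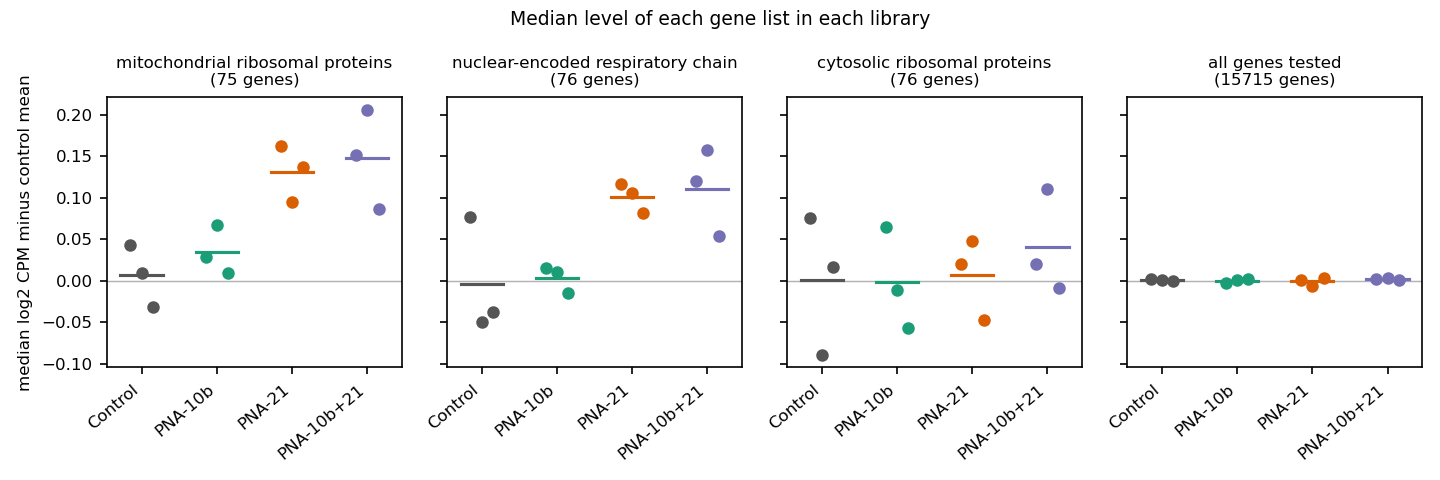
Median log2 CPM of each gene list in each library, relative to the mean of the control libraries (y axis), for the 4 groups (x axis); points are libraries and bars the mean of 3. The 75 mitochondrial ribosomal protein genes lie at 0.086 or more in all 6 libraries with sgPNA-21 and at 0.067 or less in the other 6, while the cytosolic ribosomal proteins overlap between groups.

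With sgPNA-10b alone, almost no member passed the test. Calls come from 1 edgeR quasi-likelihood fit of all 12 libraries and need a p under 0.05 after Benjamini-Hochberg adjustment across the 15715 genes. MRPL42 was the 1 member called higher of 75 (1.33%), where 2.75% of all genes were higher. No member was called lower by edgeR or by DESeq2, where 3.74% of all genes were lower by edgeR. At an unadjusted edgeR p under 0.05 the count was 9 higher and 1 lower (MRPS17, log2 fold change -0.51 ± 0.20). That is 10 of 75 members, against 3235 of 15715 genes in either direction. The median log2 fold change of the members was 0.034, against -0.001 over all genes, and ranged from 0.015 (without Control replicate 3) to 0.051 (without Control replicate 1) when 1 library was left out. In 12 members all 3 PNA-10b libraries lay above all 3 control libraries (11% of all genes did), and in MRPL33 and MRPS17 they lay below (12.8% of all genes).

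With sgPNA-21 many members rose, most by a small amount. In PNA-21, 28 of 75 members (37.3%) were higher than control and 1 was lower, where 15.2% of all genes were higher and 14.6% lower. The median member changed by 0.141 (log2), against -0.006 over all genes, and 63 of the 75 changes were positive. In 38 members every PNA-21 library exceeded every control library (21.5% of all genes), and in MRPL17, MRPS17 and MRPS6 every one was below (20.9%). The called members had a median change of 0.23, from 0.17 to 1.31 (MRPL23), and 27 of the 28 changed less than 1.5-fold. Calls depend on level, and among genes within the members' middle range (log2 CPM of 3.8 to 6.4) 22 of 59 members (37.3%) and 22.4% of 5927 genes were higher. The count of higher members was 17 without PNA-21 replicate 1 and 18 without Control replicate 3.

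The combined treatment gave a similar picture. In PNA-10b+21, 29 members (38.7%) were higher than control and 1 lower, where 13.6% of all genes were higher and 13.4% lower. Their median change was 0.146, against -0.003. In 38 members all libraries lay above all control libraries (20.3% of all genes), and in MRPS6 alone all lay below (19.9%). The called members had a median change of 0.24, from 0.19 to 0.71 (MRPL12). These counts share the control libraries with those of PNA-21, so they are not independent of them.

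Members of both subunits rose. In PNA-21, 18 of 49 large subunit members (36.7%) and 10 of 26 small subunit members (38.5%) were higher, with medians of 0.141 and 0.133. The counts in PNA-10b+21 were 19 (38.8%) and 10 (38.5%), with medians of 0.133 and 0.147. Members of bacterial families and members found only in mitochondria were both among them: 17 of 47 (36.2%) and 11 of 28 (39.3%) in PNA-21, and 18 (38.3%) and 11 (39.3%) in PNA-10b+21. Differences between these classes were not tested.

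**Figure D3:**
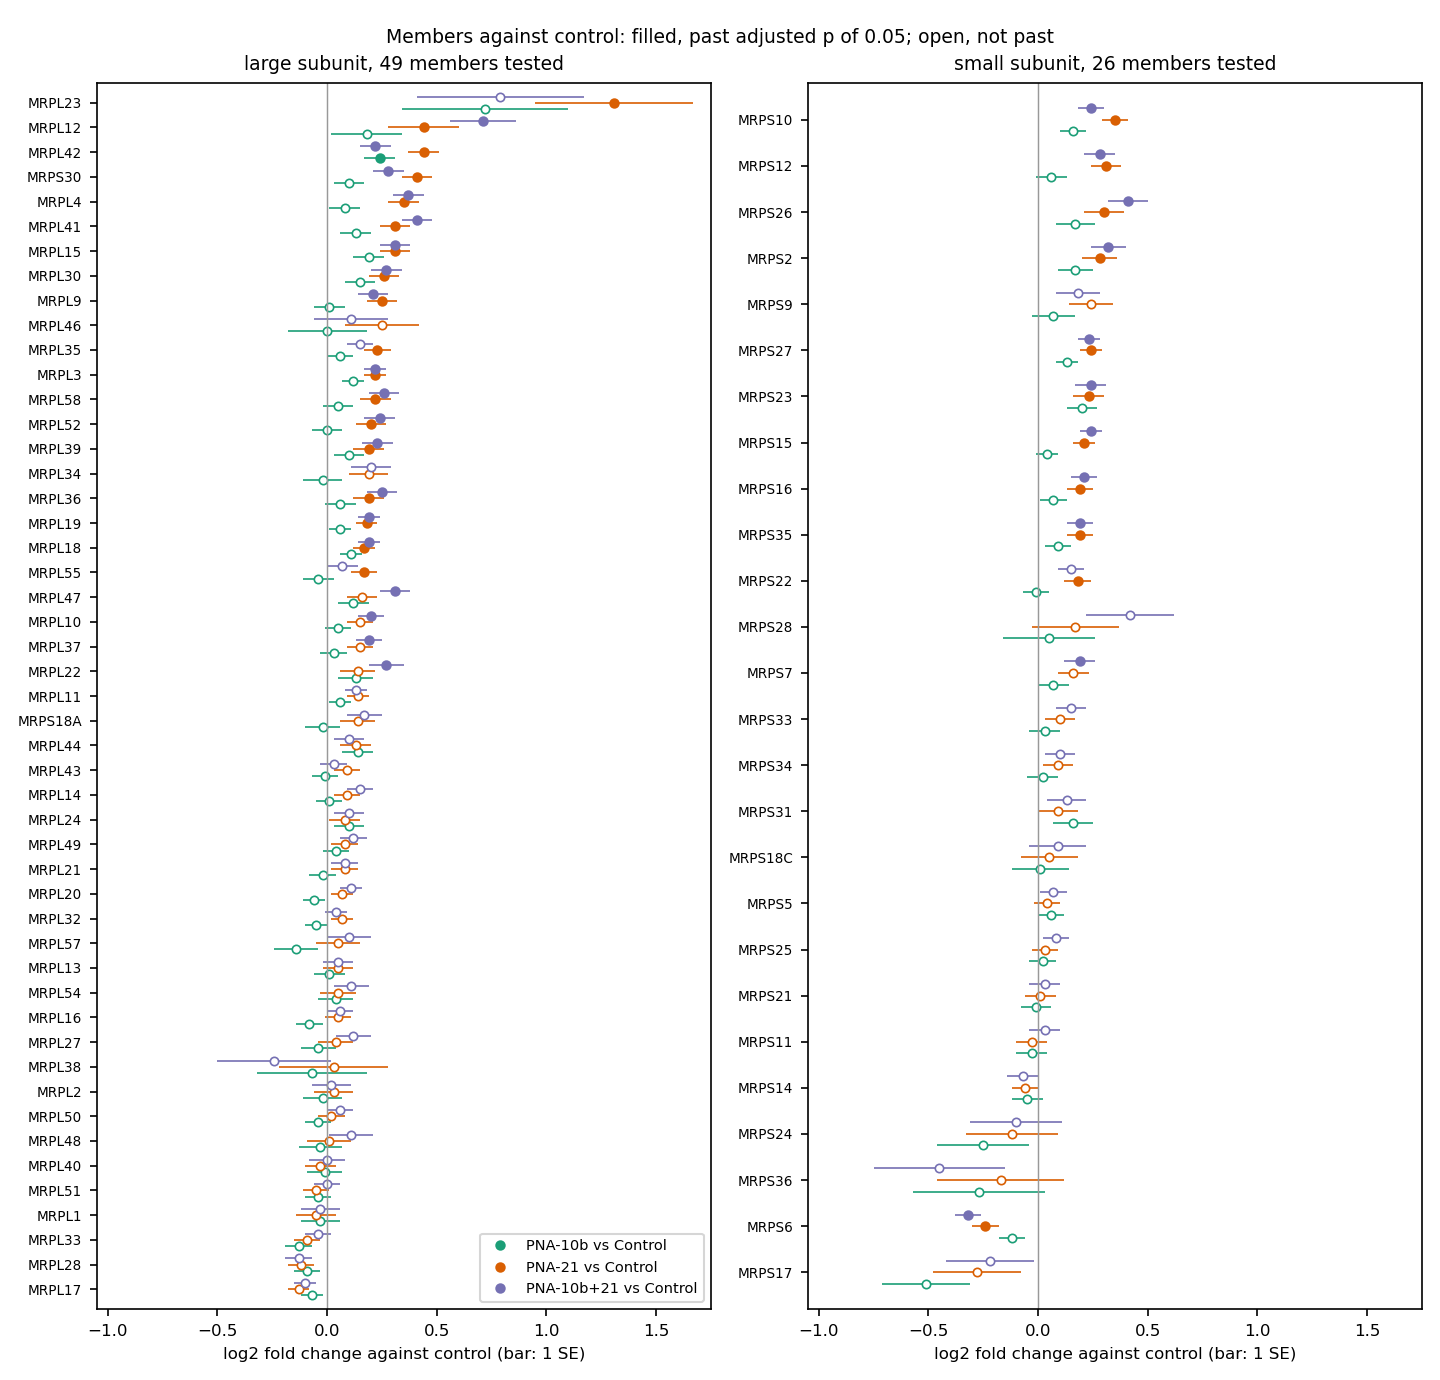
Log2 fold change against control (x axis) of the 75 tested members, ordered by the change in PNA-21 within each subunit; bars are 1 SE and filled points passed the adjusted p of 0.05. Most members lie right of 0 in PNA-21 and PNA-10b+21, PNA-10b has 1 filled point (MRPL42), and MRPS6 is the 1 member with filled points left of 0.

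Among the large subunit proteins, MRPL42 had the smallest p in PNA-21. It is a mitochondria-specific protein (chr12:93467488-93516213, + strand). Its level was 32.4, 32.0 and 27.8 CPM in control, 34.1, 37.1 and 38.2 in PNA-10b, 40.5, 45.1 and 40.5 in PNA-21, and 35.7, 36.1 and 36.4 in PNA-10b+21. The 3 treated groups all lay above control without overlap, and PNA-21 was highest. The log2 fold change against control was 0.44 ± 0.07 (edgeR adjusted p = 7.86e-05) in PNA-21, 0.24 ± 0.07 (adjusted p = 0.0421) in PNA-10b and 0.22 ± 0.07 (adjusted p = 0.0219) in PNA-10b+21. Without Control replicate 3 the last 2 were 0.18 (adjusted p = 0.209) and 0.16 (adjusted p = 0.122). The PNA-10b call also failed when Control replicate 1, replicate 2 (adjusted p = 0.173) or 3 of PNA-10b, PNA-21 replicate 1, or replicate 1 or 2 of PNA-10b+21 was left out, and in a fit of only the 2 groups compared (adjusted p = 0.0667). The PNA-10b+21 call was also lost without any 1 of its own 3 libraries (adjusted p = 0.0529 to 0.0574).

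MRPS30, a large subunit protein despite its name (chr5:44808925-44820428, + strand), followed. Its level was 35.2, 38.7 and 32.0 CPM in control, 35.6, 37.8 and 40.5 in PNA-10b, 46.4, 48.1 and 46.6 in PNA-21 and 44.5, 41.1 and 43 in PNA-10b+21. Both groups with sgPNA-21 lay above all control and PNA-10b libraries. The change against control was 0.41 ± 0.07 (adjusted p = 0.000143) in PNA-21 and 0.28 ± 0.07 (adjusted p = 0.00485) in PNA-10b+21.

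MRPL4, which lines part of the peptide exit tunnel (chr19:10251901-10260045, + strand), stood at 29.4, 32.1 and 28.7 CPM in control, 30, 32.1 and 33.7 in PNA-10b, 40, 38.7 and 36.9 in PNA-21 and 41.1, 40.4 and 35.0 in PNA-10b+21. The sgPNA-21 groups again did not overlap with the other 2, which overlapped with each other. MRPL4 rose by 0.35 ± 0.07 (adjusted p = 0.00106) in PNA-21 and 0.37 ± 0.07 (adjusted p = 0.000785) in PNA-10b+21. Other genes on the opposite strand cover 21.4% of its exon bases.

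MRPL41, a mitochondria-specific large subunit protein (chr9:137551199-137552555, + strand), had the smallest p in the combined treatment. It stood at 34.9, 37.5 and 30.3 CPM in control, 35.8, 38.3 and 38.7 in PNA-10b, 42.3, 45.7 and 40.5 in PNA-21 and 44.2, 48.7 and 44.5 in PNA-10b+21. Its change was 0.41 ± 0.07 (adjusted p = 0.00027) in PNA-10b+21 and 0.31 ± 0.07 (adjusted p = 0.0029) in PNA-21. The 6 libraries with sgPNA-21 were all above the 6 without.

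MRPL12 forms the stalk of the large subunit and also binds the mitochondrial RNA polymerase (chr17:81703357-81707526, + strand). It was counted at a low level, 4.76, 4.83 and 2.99 CPM in control, 4.20, 4.89 and 5.37 in PNA-10b, 6.14, 5.80 and 5.39 in PNA-21 and 6.82, 7.22 and 6.91 in PNA-10b+21. The PNA-10b+21 libraries were above all others. Its change was 0.71 ± 0.15 (adjusted p = 0.0015) in PNA-10b+21 and 0.44 ± 0.16 (adjusted p = 0.0387) in PNA-21. The PNA-21 call was lost without Control replicate 3 (0.26, adjusted p = 0.208), PNA-21 replicate 1 (adjusted p = 0.118) or PNA-21 replicate 2 (adjusted p = 0.0787), and under DESeq2 (adjusted p = 0.0679). A gene on the same strand covers 68.2% of its exon bases. The part of this overlap in its low count was not tested.

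Further large subunit members rose in one or both comparisons. MRPL15 rose by 0.31 ± 0.07 in both comparisons (adjusted p = 0.00116 in PNA-21 and 0.00151 in PNA-10b+21). MRPL3, which lies near the peptidyl transferase centre, stood at 113 to 115 CPM in control and 126 to 138 CPM in the 6 libraries with sgPNA-21, a rise of 0.22 ± 0.05 in both. MRPL9 rose by 0.25 ± 0.07 in PNA-21 and 0.21 ± 0.07 in PNA-10b+21, and the second call was lost under DESeq2 (adjusted p = 0.0778) and without any 1 control library or PNA-10b+21 replicate 1 (adjusted p = 0.194) or 2. MRPL30 rose by 0.26 ± 0.07 and 0.27 ± 0.07. MRPL58, a peptidyl-tRNA hydrolase that became part of the large subunit, rose by 0.22 ± 0.07 and 0.26 ± 0.07. MRPL37 stood at 141 to 156 CPM in control and 168 to 172 in PNA-10b+21, where it rose by 0.19 ± 0.06 (adjusted p = 0.015), a call lost without Control replicate 2 or PNA-10b+21 replicate 2. MRPL47 (43.4 to 50.0 CPM in control and 54.1 to 64.2 in PNA-10b+21) and MRPL22 (27.7 to 34.2 and 36.2 to 42.8 CPM) rose in PNA-10b+21, by 0.31 ± 0.07 (adjusted p = 0.00298) and 0.27 ± 0.08 (adjusted p = 0.0146). In PNA-21 they stood at 0.16 ± 0.07 and 0.14 ± 0.08 and were not called. The other 2 most abundant members were not called: MRPL51 changed by -0.05 ± 0.06 in PNA-21 and MRPL17 by -0.13 ± 0.05 (adjusted p = 0.085).

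In the small subunit, MRPS10 had the smallest p in PNA-21. It belongs to the head of the subunit (chr6:42206801-42217865, - strand) and stood at 41.8, 43 and 43.7 CPM in control, 45.5, 51.9 and 45.9 in PNA-10b, 55.2, 54.1 and 54.4 in PNA-21 and 52.2, 51.6 and 48.1 in PNA-10b+21. PNA-21 lay above all other groups, and all treated libraries lay above control. The change was 0.35 ± 0.06 (adjusted p = 0.000183) in PNA-21 and 0.24 ± 0.06 (adjusted p = 0.00504) in PNA-10b+21, against 0.16 ± 0.06 (adjusted p = 0.131) in PNA-10b.

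MRPS12, at the decoding centre, stood at 28.5 to 32.7 CPM in control and 35.8 to 39.5 in the 6 libraries with sgPNA-21, and rose by 0.31 ± 0.07 (adjusted p = 0.00141) and 0.28 ± 0.07 (adjusted p = 0.00402). MRPS15 rose from 90.3 to 96.7 CPM in control to 107 to 116 in PNA-10b+21, by 0.24 ± 0.05 (adjusted p = 0.00129), and by 0.21 ± 0.05 in PNA-21. MRPS27, a pentatricopeptide repeat protein, rose by 0.24 ± 0.05 and 0.23 ± 0.05. MRPS26 was low, at 11.1 to 11.9 CPM in control and 14.7 to 16.5 in PNA-10b+21, and rose by 0.41 ± 0.09 there (adjusted p = 0.00169) and by 0.30 ± 0.09 in PNA-21, a call lost without Control replicate 1 (adjusted p = 0.0714) or PNA-21 replicate 1 (adjusted p = 0.0578). All of these groups lay above control without overlap.

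MRPS6 was the 1 member called lower against control. Its product is a small subunit protein of a bacterial family (chr21:34073224-34143034, + strand). It stood at 177, 161 and 159 CPM in control, 154, 143 and 160 in PNA-10b, 139, 140 and 142 in PNA-21 and 123, 142 and 134 in PNA-10b+21. The libraries with sgPNA-21 lay below all control and PNA-10b libraries, and PNA-10b overlapped with control. Against control it fell by 0.24 on the log2 scale (SE 0.06, adjusted p = 0.00389) in PNA-21 and by 0.32 (SE 0.06, adjusted p = 0.000382) in PNA-10b+21. SLC5A3, a myo-inositol transporter gene that lies in the same locus and shares exon bases with MRPS6 (9.6% of the MRPS6 exon bases are shared on the same strand), moved with it. SLC5A3 averaged 381 CPM in control and fell by 0.35 (SE 0.08, adjusted p = 0.00271) and 0.45 (SE 0.08, adjusted p = 0.000308). The part of the shared transcription unit in the fall of MRPS6 was not tested.

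3 tested members had a group in which 1 library differed more than 2-fold from both others. MRPL23, at the end of the exit tunnel (chr11:1947278-1984522, + strand), stood at 15.6, 14.4 and 11.1 CPM in control, 40.6, 15.1 and 13.8 in PNA-10b, 40.3, 17.1 and 44.2 in PNA-21 and 15.5, 19.3 and 36.9 in PNA-10b+21. Values of 36.9 to 44.2 CPM occurred in 4 of the 9 treated libraries, and the control libraries reached 15.6 CPM. Its change in PNA-21 was 1.31 ± 0.36 (adjusted p = 0.00897), but 1.07 (adjusted p = 0.0602) without PNA-21 replicate 3 and an adjusted p of 0.0573 under DESeq2. MRPS36, whose product is now known as a subunit of the 2-oxoglutarate dehydrogenase complex, ranged from 9.52 to 24.6 CPM within control and from 9.90 to 28 within PNA-21, and MRPL38 from 1.21 to 2.65 within control. Neither was called in any comparison. Leaving these 3 out changed the counts of higher members from 28 to 27 in PNA-21 and left 29 in PNA-10b+21.

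**Figure D4:**
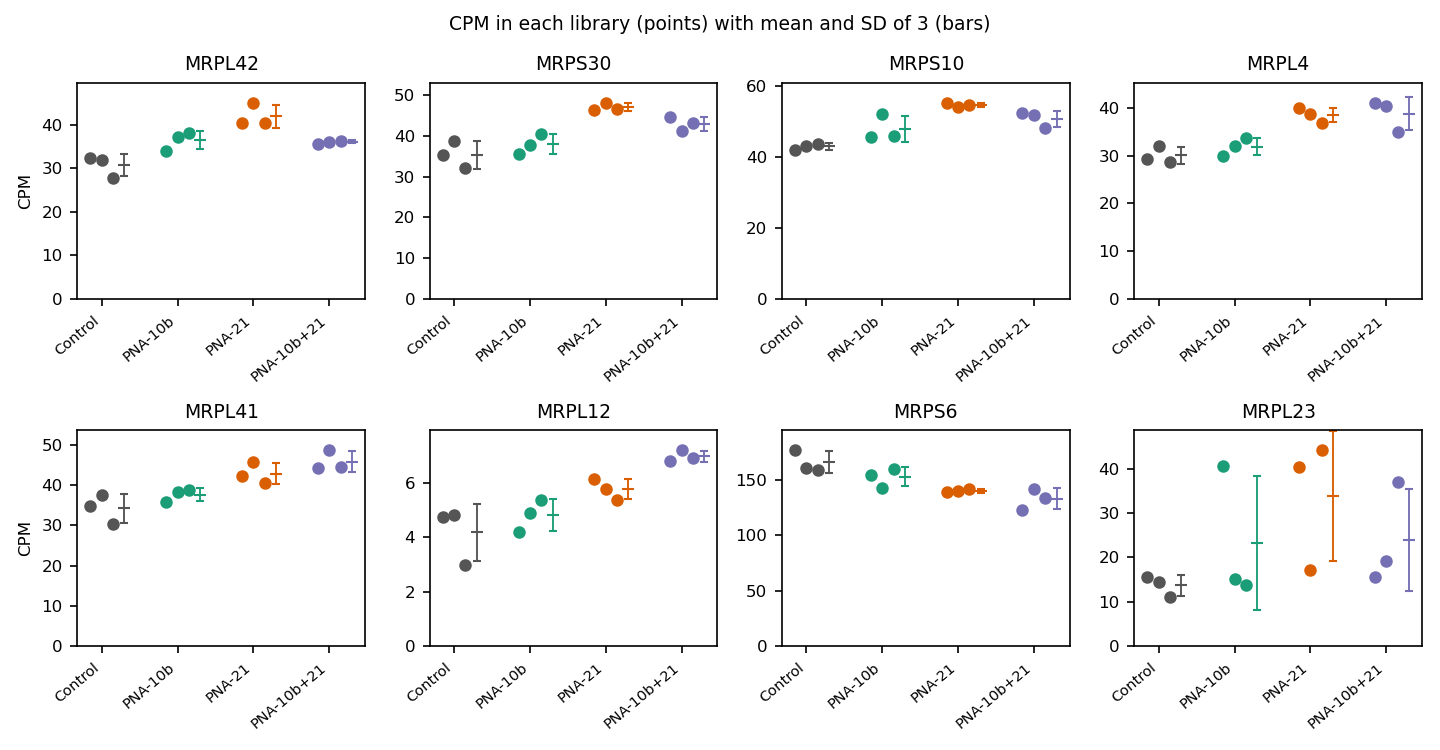
CPM of 8 members in each library (y axis, starting at 0) by group (x axis), with the mean and SD of 3 beside the points. MRPL42, MRPS30, MRPS10, MRPL4 and MRPL41 are above control in all libraries with sgPNA-21, MRPS6 is below, and MRPL23 is uneven within groups.

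The 2 single treatments differed from each other in 5 members, all higher in PNA-21: MRPS30 (0.31 ± 0.07, adjusted p = 0.0077), MRPS12 (0.25 ± 0.07, adjusted p = 0.0247), MRPL4 (0.27 ± 0.07, adjusted p = 0.0277), MRPL9 (0.24 ± 0.07, adjusted p = 0.0411) and MRPL55 (0.21 ± 0.06, adjusted p = 0.0494). That is 6.67% of the members, where 2.91% of all genes were higher. None was lower by edgeR or DESeq2 (3.88% of all genes by edgeR), and 1 was at an unadjusted p under 0.05 (MRPS6). At that edgeR threshold 22 members were higher, and 3411 of all 15715 genes passed in either direction. The median difference was 0.103. Leaving out 1 library gave 1 to 4 higher members. There was 1 when PNA-10b replicate 1 or PNA-21 replicate 1 was left out, and 2 when replicate 3 of either group was. There were 3 when replicate 2 of PNA-10b, of PNA-21 or of PNA-10b+21 was left out, or Control replicate 1 or 2. MRPS30 missed the threshold only when PNA-10b replicate 1 was left out. The MRPL4 call was lost in 4 of the 12 fits without 1 library, MRPS12 in 5 and MRPL9 in 9. The MRPL9 call was also lost under DESeq2 (adjusted p = 0.077).

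Adding sgPNA-21 to sgPNA-10b raised 7 members (9.33%, against 4.61% of all genes) and lowered MRPS6 (5.1% of all genes were lower). The 4 with the smallest p were MRPS15 (0.20 ± 0.05, adjusted p = 0.0136), MRPL4 (0.28 ± 0.07, adjusted p = 0.0156), MRPL41 (0.28 ± 0.07, adjusted p = 0.0157) and MRPL52 (0.24 ± 0.07, adjusted p = 0.0241), and the others were MRPL12, MRPS12 and MRPL58. MRPS6 fell by 0.20 (SE 0.06, adjusted p = 0.0335), a call lost without PNA-10b replicate 1, PNA-10b replicate 3 or PNA-10b+21 replicate 1 (adjusted p = 0.214). The number of higher members was 0 when PNA-10b+21 replicate 2 was left out and 2 when replicate 1 of either group was. Leaving out replicate 3 of PNA-10b gave 3, and leaving out its replicate 2 gave 4. The MRPS12 call was lost in 10 of the 12 fits without 1 library and under DESeq2 (adjusted p = 0.0696). MRPL12 and MRPL52 were each lost in 4 of the 12, MRPL4 in 3, and MRPL41 and MRPS15 each in 2.

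This comparison and that of PNA-21 with control both include the addition of sgPNA-21 and share no library. The latter also includes the nanoparticles, because control cells were untreated. Both come from the same fit of all 12 libraries, so their calls are not fully independent. All 7 members higher in the former were also higher in the latter, which is 100% of the 7 and 25% of the 28. Over all genes 466 were higher in both, which is 64.4% of 724 and 19.5% of 2388. Of the 28 members higher in PNA-21 against control, 27 (96.4%) also had a positive change when sgPNA-21 was added to sgPNA-10b, the exception being MRPL42. Over all genes this held for 79.3% of the 2388 called higher. The median change of the members was 0.141 on the untreated background and 0.107 on the sgPNA-10b background.

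Adding sgPNA-10b to sgPNA-21 changed no member by edgeR or DESeq2. Over all genes 0.0% were higher and 0.0% lower by edgeR, and DESeq2 called 25. At an unadjusted edgeR p under 0.05 there was 1 member, MRPL42 (-0.22 ± 0.07, adjusted p = 0.31), and 1354 of all genes. The median difference of the members was 0.017, and leaving out 1 library of the combined arm moved it to -0.011 (its replicate 2) or 0.055 (its replicate 3).

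The interaction asks whether the change with sgPNA-21 differed between cells with and without sgPNA-10b. Because control cells were untreated, an effect common to all nanoparticle groups enters this contrast with its sign reversed. The contrast cannot tell such an effect apart from a dependence on sgPNA-10b. It was called for MRPL42 alone, at -0.46 ± 0.10 (adjusted p = 0.0162). That is 1 of 75 members (1.33%), where 1.64% of all genes had a negative interaction. MRPL42 rose with sgPNA-21 alone by 0.44 ± 0.07 and changed by -0.02 ± 0.07 when sgPNA-21 was added to sgPNA-10b. The call was lost without Control replicate 3 (-0.40, adjusted p = 0.0534), PNA-10b replicate 2 (adjusted p = 0.0618) or PNA-21 replicate 2 (adjusted p = 0.063). No member had a positive interaction by edgeR or DESeq2 (1.48% of all genes by edgeR), and none did at an unadjusted p under 0.05. MRPS10 (-0.27 ± 0.08), MRPS30 (-0.23 ± 0.10), MRPL23 (-1.24 ± 0.50) and MRPL15 (-0.20 ± 0.09) reached an unadjusted p under 0.05 with a negative sign, with adjusted p from 0.0818 to 0.246. With MRPL42 this makes 5 of 75 members at that edgeR threshold, against 2933 of 15715 genes in either direction. The median over the members was -0.005, and ranged from -0.039 (without PNA-10b+21 replicate 2) to 0.023 (without PNA-10b+21 replicate 3) when 1 library was left out.

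The members with a miR-21-5p match included some that rose and some that did not. In PNA-21, MRPL9, MRPL30, MRPL42 and MRPS10 were higher among the 7 with a match (57.1%), and 24 of the 68 tested without one (35.3%), and the medians were 0.25 and 0.14. MRPS33, the other member with an 8mer site, changed by 0.10 ± 0.07 (adjusted p = 0.29), MRPS25 by 0.03 ± 0.06, and MRPL17 had a negative change. Over all genes with an annotated 3′ UTR, 22.4% of the 1269 with a match and 18.2% of the 10968 without were higher. In PNA-10b+21 the same 4 members were higher among the 7, and 25 of the 68 without a match (36.8%), where the shares over all genes were 13.9% with and 16.9% without. The difference between members with and without a match was not tested. Of the 5 members with a miR-10b-5p match, MRPL42 was called in PNA-10b, while MRPL30 (0.15 ± 0.07), MRPS12 (0.06 ± 0.07), MRPS28 (0.05 ± 0.21) and MRPS17 (-0.51 ± 0.20) were not. Over all genes with an annotated 3′ UTR, 3.38% of the 1834 with a miR-10b-5p match and 3.25% of the 10403 without were higher in PNA-10b.

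Members that rose were found with each kind of promoter letters. Of the 18 tested members with YY1 letters, 7 (38.9%) were higher in PNA-21 and 10 (55.6%) in PNA-10b+21. Those with NRF1 letters gave 6 (28.6%) and 8 (38.1%) of 21, and those with ETS letters 3 (30%) and 3 (30%) of 10, against 37.3% and 38.7% of all 75 tested. MRPL42, MRPS30, MRPS10 and MRPS27, whose stretches are printed above, were higher in both comparisons. MRPL22 and MRPS7, also with YY1 letters just after the start, were higher in PNA-10b+21 but not in PNA-21. MRPL20, MRPL38, MRPL46, MRPL50, MRPL51, MRPS18A and MRPS24 have such letters there too and were not called in either comparison.

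Lists of other genes of mitochondrial gene expression, drawn from textbook knowledge, also held more genes called higher than lower with sgPNA-21. Their shares of higher genes stand beside 15.2% of all genes in PNA-21 and 13.6% in PNA-10b+21, and the differences from these were not tested. Of 5 ribosomal proteins under other names, AURKAIP1 (1 of 5, 20%) was higher in PNA-21 (0.22 ± 0.06) and in PNA-10b+21 (0.24 ± 0.06), and DAP3, GADD45GIP1, CHCHD1 and PTCD3 were not called. Of 25 tested assembly factors 6 (24%) were higher in PNA-21 and 6 (24%) in PNA-10b+21, with medians of 0.082 and 0.131. They included DHX30, an RNA helicase (0.24 ± 0.06 and 0.29 ± 0.06), and MPV17L2 (0.41 ± 0.11 and 0.42 ± 0.11), while MTERF4 fell by 0.23 (SE 0.06) in PNA-21. Of 16 translation factors 5 (31.2%) were higher in PNA-21 and 8 (50%) in PNA-10b+21, with medians of 0.127 and 0.161. They included LRPPRC, which stabilises mitochondrial messenger RNA (0.24 ± 0.05 and 0.28 ± 0.05), GFM1, an elongation factor (0.27 ± 0.06 and 0.28 ± 0.06), and SLIRP in PNA-10b+21 (0.34 ± 0.07).

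Of 21 genes of mitochondrial DNA expression, 8 (38.1%) and 9 (42.9%) were higher, with medians of 0.147 and 0.18. TBRG4 rose by 0.32 ± 0.06 and 0.33 ± 0.06, and TFAM, which packages mitochondrial DNA and starts its transcription, by 0.32 ± 0.07 and 0.21 ± 0.07. POLRMT, the RNA polymerase that MRPL12 binds, changed by 0.02 ± 0.06 and 0.04 ± 0.07 and was not called. Among 9 regulators of mitochondrial biogenesis, 5 were higher in PNA-21: ESRRA (0.46 ± 0.08), PPARGC1B (0.62 ± 0.11), PPRC1 (0.26 ± 0.06), GABPA (0.32 ± 0.08) and GABPB1 (0.23 ± 0.07). In PNA-10b+21 the first 3 of these were higher, at 0.42 ± 0.08, 0.80 ± 0.11 and 0.39 ± 0.06. GABPA had a negative interaction (-0.43 ± 0.11, adjusted p = 0.0343). PPARGC1A, NRF1, YY1 and MYC were not called in either comparison. NRF1, YY1 and MYC stood at 0.03 ± 0.07, 0.03 ± 0.05 and -0.13 ± 0.06 in PNA-21.

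The nearest lists for comparison differed from each other. Of 76 nuclear-encoded respiratory chain genes, 20 (26.3%) were higher and 1 lower (ATP5IF1) in PNA-21, and 17 (22.4%) higher and 1 lower (ATP5IF1) in PNA-10b+21, with medians of 0.10 and 0.115. CYC1, cytochrome c1 of complex III, rose by 0.43 ± 0.07 and 0.47 ± 0.07. Of 76 cytosolic ribosomal proteins, the counterpart in the cytosol, the 1 call over both comparisons was RPL13 in PNA-10b+21 (0.15 ± 0.05, adjusted p = 0.0369), with medians of 0.005 and 0.037. Their summed level was 23720 ± 1410 CPM (SD, n = 3) in control and 23810 ± 944 in PNA-21, against 3258 ± 71.7 and 3539 ± 82.0 for the mitochondrial ones. The difference between lists was not tested.

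**Figure D5:**
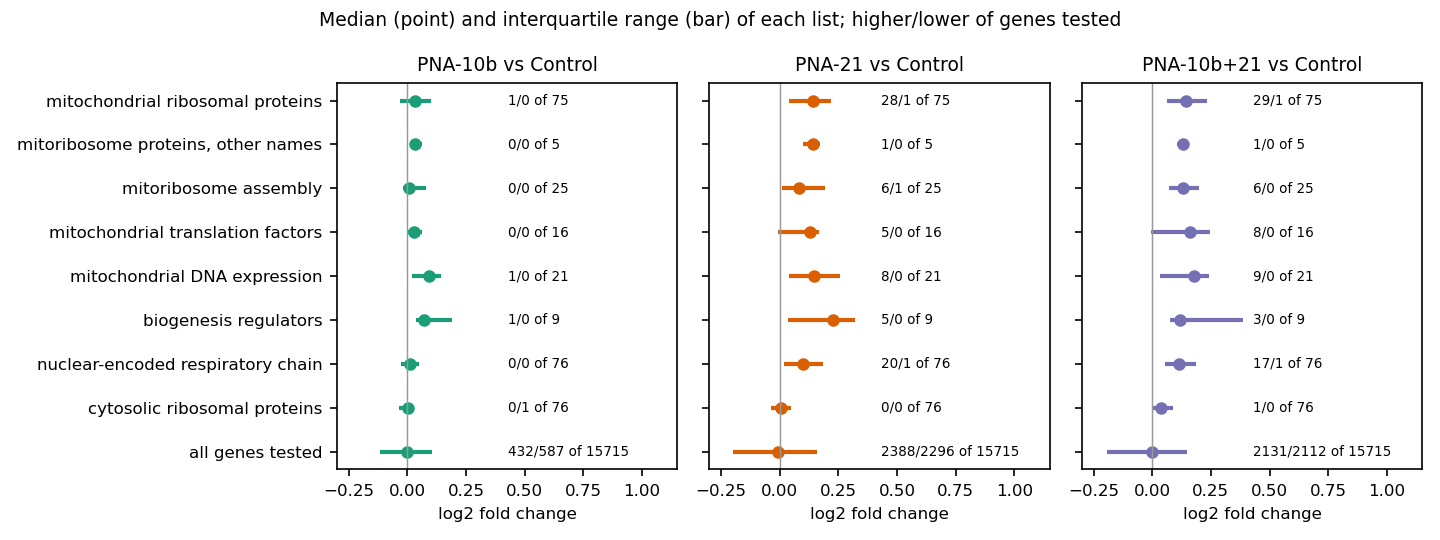
Median (point) and interquartile range (bar) of the log2 fold change against control (x axis) for each gene list (y axis) in 3 comparisons, with the number of genes higher/lower of those tested beside each. The lists of mitochondrial genes have medians of 0.08 or more in PNA-21 and PNA-10b+21, while the cytosolic ribosomal proteins have medians of 0.005 and 0.037.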

How the data were processed

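Messenger RNA of 12 libraries was measured. The authors deposited whole-number counts per gene. HISAT2 2.1.0, SAMtools 1.7, HTSeq 0.11.0 and the hg38 build are named per the submitters' processing notes. How strand was handled in counting, and with which annotation, is not given in the sources used here. Genes under a minimum count of 10 (edgeR filterByExpr) were removed, leaving 15715 with 99.84% of counts. Counts were scaled by TMM and tested with edgeR 4.0.16 (quasi-likelihood, 1 mean per group, R 4.3.3) in 7 comparisons, with Benjamini-Hochberg adjustment over all genes. The procedure was tested on simulated data, whose planted changes were larger than most of those called here. That test therefore does not measure how well such small changes are found. The common biological coefficient of variation was 0.0518. Gene models were matched for 34564 genes (GENCODE release 29).

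Alternatives were DESeq2 1.42.0, other scalings, other count filters, a fit of only the groups compared, a replicate block and leaving out each library. Leaving out the uneven members was added after seeing the data. Members and lists were chosen with earlier results of these data known. Named members were the 6 of smallest p per direction against control, the 4 per direction in other comparisons, the 3 highest and 3 lowest levels, the MRPS18 paralogs, MRPL12, members removed by the filter, uneven members and those with a seed match. Members beyond these were named after their values were seen.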

Additional observations from a re-analysis of the deposited data

Results flagged for a closer look

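The change with sgPNA-21 differed between cells with and without sgPNA-10b for MRPL42. It was the 1 member called of 75 (1.33%), where 1.64% of all genes were called with a negative interaction. The difference was -0.46 ± 0.10 on the log2 scale (edgeR interaction test, adjusted p = 0.0162): MRPL42 rose by 0.44 ± 0.07 when sgPNA-21 was given alone and changed by -0.02 ± 0.07 when it was added to sgPNA-10b. Leaving out Control replicate 3, or replicate 2 of either single treatment, moved the adjusted p to between 0.0534 and 0.063. Control cells were untreated, so a rise common to all nanoparticle groups would also give a negative difference and cannot be told apart here.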

How the results depend on the processing

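Of 43 calls on named members, 22 were kept without any 1 library, 21 were lost without at least 1, and 8 were lost in at least 1 of the 8 other settings; 0 reversed. Without the filter on low counts, higher members were 2 in PNA-10b against control and 4 in PNA-10b+21 against PNA-10b, and lower members were 2 in PNA-10b+21 against control, 1 in PNA-10b+21 against PNA-21 and 2 in the interaction. The 28 and 29 higher members in PNA-21 and PNA-10b+21 against control became 22 and 26 under DESeq2. They became 23 and 26 with upper-quartile scaling, and 35 and 37 with library size only. Other counts in this paragraph are given only where they moved by more than 1.5-fold. Upper-quartile scaling gave 2 lower members in PNA-21 and 2 in PNA-10b+21 against control, and 3 higher in PNA-21 against PNA-10b. A minimum count of 30 gave 2 lower in PNA-21. With library size only, the median was 0.191 in PNA-21 and 0.191 in PNA-10b+21, with the median of all genes at 0.044 and 0.042, and 8 members were higher in PNA-21 against PNA-10b. Fitting only the groups compared gave 0 higher in PNA-10b and 3 in PNA-21 against PNA-10b. The causes were not tested.

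Leaving out 1 library gave these ranges of members called higher: 0 to 1 for PNA-10b against control, 17 to 28 for PNA-21 against control, 21 to 32 for the combined arm against control, 1 to 4 between the single treatments and 0 to 10 for the combined arm against PNA-10b. Members called lower were 1 to 2 for PNA-21 and 1 to 2 for the combined arm against control, 0 to 1 for the combined arm against PNA-10b and 0 to 1 for the interaction. The median in PNA-10b+21 against control ranged from 0.099 to 0.175.

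With a replicate block, 1, 29 and 30 members were higher in PNA-10b, PNA-21 and PNA-10b+21 against control, and 5 and 9 in PNA-21 and PNA-10b+21 against PNA-10b. Same-numbered libraries correlated at -0.0577 to 0.109, and 8 of 18 pairs were best with their own number, so the numbers were not taken to pair the samples. The 3 libraries per group limit precision, and counts of lowly counted members such as MRPL12 and MRPL38 carry more error.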
